A study of Mus musculus with 6 samples.

Results

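The genes of respiratory complex I, the NADH dehydrogenase of the inner mitochondrial membrane, were examined in MIN6B1 cells after silencing of circHIPK3. The members were all array probes whose annotated gene symbol begins with Nduf, a rule that uses no measured value. It found 54 of 39429 probes, which stood for 46 of the 25789 genes and unnamed transcripts tested. By symbol these were 14 Ndufa genes, 10 Ndufb genes, 2 Ndufc genes, 8 Ndufs genes, 3 Ndufv genes, the acyl carrier gene Ndufab1 and 8 Ndufaf genes, which encode assembly factors.

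MIN6B1 is an insulin-secreting mouse insulinoma line used to stand in for beta cells. Samples were collected 48 h after transfection. One group had received siRNA to circHIPK3, the circular transcript of Hipk3, and the control group siRNA to green fluorescent protein (siGFP). Total RNA of 3 samples a group was hybridised to single-colour Agilent arrays, 1 array a sample. Whether each replicate came from its own culture is not stated in the labels, and the spread behind the p-values may therefore be technical. Scanner records place the 3 siGFP arrays and circHIPK3 siRNA replicate 1 in a first scan and circHIPK3 siRNA replicates 2 and 3 in a second. Each scan is called a slide here, which is inferred from the shared scan record, since slide barcodes were not used.

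Complex I takes electrons from NADH, passes them through a flavin and a chain of iron-sulfur clusters to ubiquinone, and couples this to proton pumping. Its peripheral arm holds the N module, where NADH is oxidised, and the Q module, where ubiquinone is reduced, and its membrane arm holds the pumping modules. Core subunits carry the catalysis and are shared with bacteria, whereas supernumerary subunits surround them and assembly factors help build the complex without staying in it. In beta cells, mitochondrial respiration links glucose metabolism to the ATP that closes potassium channels before insulin is released.

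Per array, the processed signal had a 75th percentile of 2939 to 3669 units, and 77.7% to 83.5% of probes were well above background. All 12 beta cell markers checked were well above background on all 6 arrays, among them Ins1, Ins2, Pdx1 and Mafa. The markers Hhex of delta cells, Sox9 of duct cells, Pdgfra of fibroblasts and Cdh5 of endothelial cells were well above background on none, while Gcg and Ppy were on all 6. The brighter Hipk3 probe gave a change of -0.17 ± 0.14 (SE, limma adjusted p = 0.50), and whether it lies in the exon of the circle was not examined, so it does not check the silencing. All 54 Nduf probes were well above background on all 6 arrays and none was saturated, so every member passed the filter on dim probes. With 3 arrays a group, their number limits the precision.

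Values are log2 signals relative to the 75th percentile of the array. Each gene is represented by its probe with the highest mean signal. Changes are circHIPK3 siRNA minus siGFP on the log2 scale, with the standard error (SE) or the 95% interval of the limma fit. Adjusted p-values are limma values with Benjamini-Hochberg adjustment over all 25789 genes, and a gene is said to rise or fall where that value is under 0.05. In bulk RNA, fewer cells of a type and less RNA per cell cannot be told apart.

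Of the 46 Nduf genes, 1 fell and none rose after circHIPK3 siRNA, where 1.18% of all genes tested passed the threshold, 0.64% by falling and 0.543% by rising. In numbers of genes, 165 fell and 140 rose, and the split was 218 to 45 under quantile normalization and 403 to 206 under median scaling. The gene that fell was Ndufs3, a core subunit of the Q module, by 1.63-fold. At an unadjusted limma p under 0.05, 2 members were lower, Ndufs3 and Ndufs8, and 0 were higher, whereas 21.1% of all genes passed that limit in either direction, 6.5% being lower and 14.6% higher. The other 45 members had changes from -0.30 (Ndufs8) to 0.24 (Ndufa4l2). The 95% interval lay within 1.5-fold in either direction for 44 of those 45, Ndufa4l2 being the exception, against 61.4% of all genes tested and 87.4% of the genes in the brightest of 4 equal groups by signal. These intervals bound the changes of the members and do not show that they were 0.

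The promoter of Ndufs3, the member that fell, and that of Ndufs8, the other member past the unadjusted limit, are given here from RefSeq (GRCm38.p6), from 250 bases before to 50 after the start site. Both lie on the minus strand, at chr2:90904672-90904971 for Ndufs3 and at chr19:3912725-3913024 for Ndufs8. Capitals mark matches, on either strand, to the letter strings described after them.
Ndufs3: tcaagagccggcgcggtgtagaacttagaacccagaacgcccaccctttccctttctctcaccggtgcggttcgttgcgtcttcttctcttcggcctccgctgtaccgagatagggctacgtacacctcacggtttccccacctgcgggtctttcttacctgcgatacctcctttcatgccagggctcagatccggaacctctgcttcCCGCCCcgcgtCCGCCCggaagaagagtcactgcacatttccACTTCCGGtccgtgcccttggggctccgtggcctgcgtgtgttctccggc
Ndufs8: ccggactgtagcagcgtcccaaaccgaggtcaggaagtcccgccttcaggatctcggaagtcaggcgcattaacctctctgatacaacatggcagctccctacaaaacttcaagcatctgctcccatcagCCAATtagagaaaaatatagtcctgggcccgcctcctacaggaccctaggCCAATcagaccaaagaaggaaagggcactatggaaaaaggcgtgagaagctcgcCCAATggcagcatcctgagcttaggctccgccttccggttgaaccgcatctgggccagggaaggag

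The strings searched were GCGCATGCG for the factor NRF1, CCGGAAGT for ETS family factors, TCAAGGTCA for estrogen-related receptors, CAAGATGGC for YY1, CCAAT for the CCAAT box and GGGCGG for the GC box, each also as its reverse complement. Ndufs3 held the ETS string and the GC box string, and Ndufs8 held the CCAAT string. The table held promoters of 40 Nduf genes outside chromosome 18, of 27025 genes in all, and of 13644 of the genes tested. The NRF1 string was found in 4 of the 40 (10.0%), namely Ndufa8, Ndufa11, Ndufaf4 and Ndufaf5, against 1.95% of all genes and 3.15% of those tested. The YY1 string was found in 5 (12.5%), namely Ndufa3, Ndufaf8, Ndufc1, Ndufs6 and Ndufs7, against 1.42% and 2.05%. Ndufs3 was the 1 member with the ETS string (2.5%, against 4.31% and 7.03%). The estrogen-related receptor string was found in 0, against 0.466% and 0.388%. The CCAAT string was in 14 (35.0%, against 41.1% and 42.5%) and the GC box string in 21 (52.5%, against 38.2% and 58.1%). NRF1 and YY1 are known regulators of nuclear genes for mitochondrial proteins. A match of letters is a description of these windows only, and the strings were chosen after the values of the genes were seen.

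Ndufs3 encodes an iron-sulfur protein fraction subunit of the Q module, next to the site of ubiquinone reduction, and is among the first subunits joined during assembly. Its log2 signal was 3.66, 3.63 and 3.81 on the siGFP arrays and 3.01, 3.15 and 2.85 on the circHIPK3 siRNA arrays. Each circHIPK3 siRNA array was lower than every siGFP array, with the gap between the groups larger than the range within either. The means were 3.70 ± 0.09 (SD, n = 3) and 3.00 ± 0.15 (SD, n = 3). The change was -0.70 ± 0.11 (SE), with a 95% interval of -0.97 to -0.43 and an adjusted p of 0.0469. A two-sided exact permutation test over the arrays gave p = 0.1, the smallest that 3 against 3 arrays allow.

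The call of Ndufs3 did not hold in every fit. All siGFP arrays lay on the first slide, so a change within a slide could be measured there only, from 1 circHIPK3 siRNA array. On the first slide alone, circHIPK3 siRNA replicate 1 differed from the mean of the siGFP arrays by -0.70, which is the change of -0.70 ± 0.17 (SE, limma adjusted p = 0.223) with slide as a block. Over the 21 alternatives the change ranged from -0.80 to -0.63, and it passed in 11 of them, with adjusted p-values from 0.00597 to 0.223. The call was lost on leaving out 1 array, whether siGFP replicate 1, 2 or 3 or circHIPK3 siRNA replicate 2 or 3, with limma adjusted p-values of 0.0819 to 0.184, while without circHIPK3 siRNA replicate 1 it stayed at 0.0381. Because the groups did not overlap, the direction was fixed in advance when an array was left out. Only 1 probe was matched to Ndufs3, so no second probe bears on its value.

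**Figure D1:**
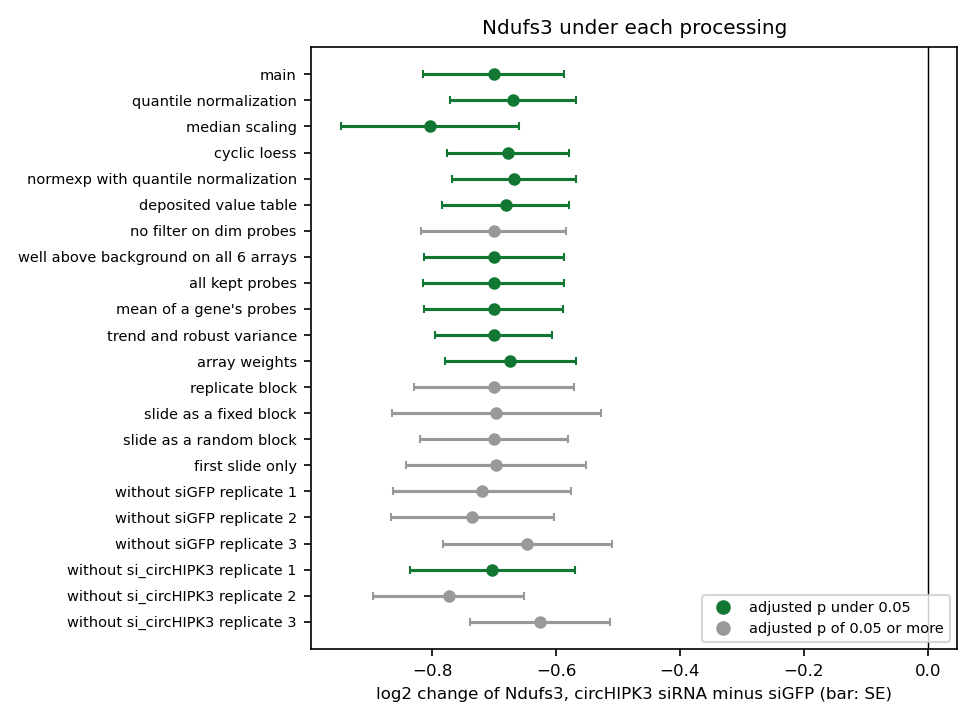
Log2 change of Ndufs3 (x axis, circHIPK3 siRNA minus siGFP) under the main processing and each of the 21 alternatives (y axis). Points are estimates, bars are SE, and colour shows the side of the adjusted p threshold of 0.05. All estimates lie between -0.80 and -0.63, and 10 alternatives fall short of the threshold.

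Set against the other core subunit genes on the same array, Ndufs3 shifted in all 3 circHIPK3 siRNA samples. Its log2 signal exceeded the median of the other 6 core subunits by 0.92, 0.90 and 1.03 on the siGFP arrays and by 0.26, 0.45 and 0.22 on the circHIPK3 siRNA arrays. Against the median of the other 45 Nduf genes the distances were 0.71, 0.77 and 0.82 for siGFP and 0.11, 0.19 and -0.02 for circHIPK3 siRNA. These distances compare arrays and not the levels of different probes. They were computed after the Ndufs3 value was seen and have no test.

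None of the other 5 Q module genes passed, and the lowest of them was Ndufs8 at -0.30. Ndufs8, which encodes the core subunit with a pair of iron-sulfur clusters that feeds the last cluster before ubiquinone, gave 0.93, 0.80 and 0.90 on the siGFP arrays and 0.77, 0.50 and 0.45 on the circHIPK3 siRNA arrays. All 3 circHIPK3 siRNA arrays were lower, but replicate 1, on the slide of the controls, differed from the siGFP mean by only -0.11. The change was -0.30 ± 0.12 (SE, limma adjusted p = 0.20). Adding slide to the fit gives that same difference of -0.11, since it rests on replicate 1 alone. Ndufs8 passed in none of the alternatives, the lowest limma adjusted p among them being 0.0677. Ndufs7, which carries the last cluster of that chain, gave 2.95, 2.91 and 2.99 against 3.01, 2.96 and 2.74. For this gene the groups overlapped, and the 95% interval of the change was -0.30 to 0.20.

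Among the supernumerary subunits of that module, Ndufa5 gave 3.89, 3.82 and 3.83 against 3.76, 3.78 and 3.62. All 3 circHIPK3 siRNA arrays were lower by its brighter probe, with a change of -0.13 ± 0.10 (SE), and its second probe gave -0.05 ± 0.11 (SE). Ndufa9, a subunit of dehydrogenase fold at the junction of the arms, gave 1.94, 1.96 and 1.98 against 1.93, 1.97 and 1.86, with overlapping groups. The 6 Q module genes had a median change of -0.09. Small values among them changed sign with the processing: Ndufa9 was at 0.0035 in the deposited value table and Ndufs7 at 0.06 with slide as a block. Without Ndufs3 the median of the other 5 was -0.05, against 0.08 for all genes and -0.0097 for genes of the brightest signal group.

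**Figure D2:**
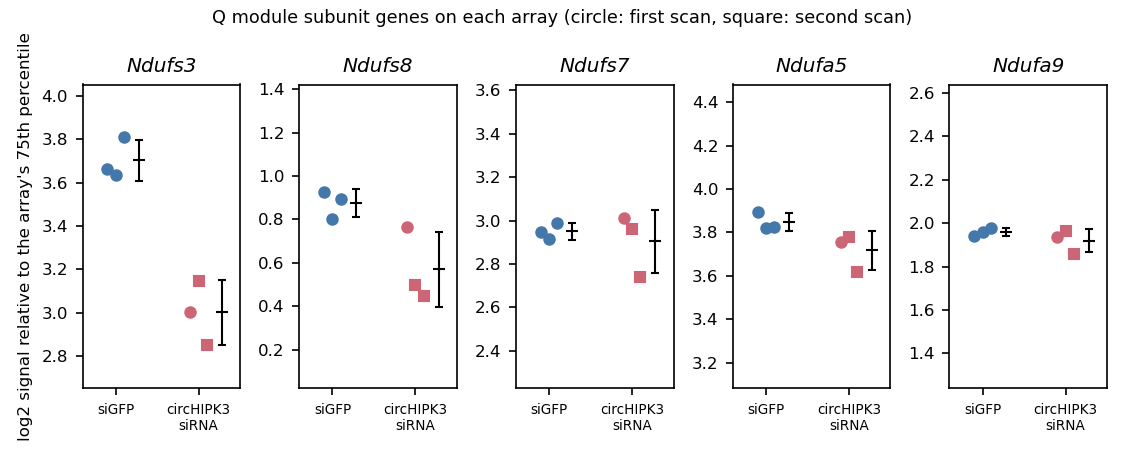
Log2 signal relative to the array's 75th percentile (y axis, equal span in each panel) of 5 Q module genes on each array, by group (x axis). Circles are arrays of the first scan, squares arrays of the second, and the bar is the mean with SD of 3 arrays. Ndufs3 lies at 3.63 to 3.81 in siGFP and 2.85 to 3.15 in circHIPK3 siRNA, whereas Ndufs7 and Ndufa9 overlap between groups.

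The Ndufv genes and the N module subunits of the Ndufs class, which belong to the module where NADH is oxidised, did not pass the test. Ndufv1, which binds the flavin and NADH, gave 3.84, 3.65 and 3.87 on the siGFP arrays and 3.92, 3.85 and 3.94 on the circHIPK3 siRNA arrays, a change of 0.11 ± 0.10 (SE). Ndufv3, an accessory subunit of that module, gave 4.65, 4.62 and 4.71 against 4.84, 4.70 and 4.54. For both genes the groups overlapped. Ndufv2 was at 0.07 ± 0.14 (SE), and its siGFP arrays spread from 3.40 to 3.86. Ndufs1, the largest subunit, with several iron-sulfur clusters, gave 2.54, 2.55 and 2.57 against 2.49, 2.44 and 2.53. Its groups did not overlap although the change was only -0.07 ± 0.09 (SE), with an interval of -0.27 to 0.14. Ndufs4 and Ndufs6, accessory subunits of the same module, were at 0.05 ± 0.09 and -0.05 ± 0.10 (SE). Ndufs5, an accessory subunit of the membrane arm despite its symbol, gave 4.08, 3.97 and 4.19 against 4.20, 4.15 and 4.13, a change of 0.08 ± 0.10 (SE) whose sign turned under median scaling (-0.02).

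The 14 Ndufa genes had changes between -0.21 and 0.24, and none passed (0 at an unadjusted limma p under 0.05). Ndufa11, a membrane arm subunit, was the lowest of them, with -0.93, -1.13 and -0.999 on the siGFP arrays and -1.004, -1.37 and -1.32 on the circHIPK3 siRNA arrays. Only the arrays of the second slide were below the controls. The change was -0.21 ± 0.13 (SE), and 0.02 with slide as a block, which is the difference of replicate 1 alone. Ndufa3, a small membrane subunit, gave 3.00, 2.86 and 3.11 against 2.89, 2.81 and 2.76, with overlapping groups and a change of -0.17 ± 0.11 (SE). Ndufa1, a membrane subunit encoded on the X chromosome and needed for assembly, gave 5.12, 4.94 and 5.17 against 5.15, 5.12 and 5.17. Its change was 0.07 ± 0.10 (SE), and -0.04 under median scaling. Ndufa10, a membrane arm subunit of nucleoside kinase fold, gave 0.44, 0.53 and 0.43 against 0.76, 0.46 and 0.66, where replicate 2 lay within the siGFP range. Its change was 0.16 ± 0.11 (SE).

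Both Ndufa4 genes stand apart in function, since Ndufa4 is now assigned to complex IV and Ndufa4l2 is a hypoxia-induced paralog. Ndufa4 was at -0.07 ± 0.10 (SE). Ndufa4l2 gave -2.99, -2.82 and -3.16 on the siGFP arrays and -2.52, -2.60 and -3.15 on the circHIPK3 siRNA arrays. Replicates 1 and 2 were above the controls and replicate 3 lay within their range. With an SD of 0.35 in that group it had the widest 95% interval of the 46 genes, -0.20 to 0.67. The other 8 Ndufa genes, Ndufa2, Ndufa5, Ndufa6, Ndufa7, Ndufa8, Ndufa9, Ndufa12 and Ndufa13, had changes between -0.13 (Ndufa5) and 0.08 (Ndufa8). Among them Ndufa13, also known as GRIM-19 and linked to cell death signalling, was at -0.07 ± 0.11 (SE).

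The Ndufb subunits, all of which are supernumerary, belong to the distal membrane arm. Their 10 genes had changes between -0.14 and 0.19, with none past the threshold and 0 at an unadjusted limma p under 0.05. Ndufb4 was the highest, with 3.66, 3.64 and 3.80 on the siGFP arrays and 3.96, 3.95 and 3.78 on the circHIPK3 siRNA arrays. Replicate 3 lay within the siGFP range, and the change was 0.19 ± 0.10 (SE, limma adjusted p = 0.314). The second Ndufb4 probe gave 0.16 ± 0.11 (SE). The RefSeq table also lists the close gene copies Ndufb4b and Ndufb4c, to which no probe was matched, and probe sequences were not used here, so signal from these copies cannot be told apart from that of Ndufb4. Ndufb11, encoded on the X chromosome, gave 4.44, 4.37 and 4.53 against 4.53, 4.45 and 4.31, a change of -0.02 ± 0.10 (SE) that was 0.08 with slide as a block and 0.0054 under cyclic loess.

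Ndufb5 gave opposite answers by its 2 probes. The brighter read 3.21, 3.17 and 3.30 on the siGFP arrays and 3.34, 3.37 and 3.37 on the circHIPK3 siRNA arrays, so that all 3 circHIPK3 siRNA arrays were higher, by 0.14 ± 0.09 (SE). The second read 0.05, 0.11 and 0.02 against -0.17, -0.15 and -0.12, so that all 3 were lower, by a change of -0.21 ± 0.09 (SE, limma adjusted p = 0.241 over the 31392 probes kept). Of the 8 genes with a second probe, 3 had probes of opposite sign, Ndufb5, Ndufb6 and Ndufaf4. No second probe passed over all kept probes by limma. The second probes of Ndufb11 and Ndufaf5 were at -0.35 ± 0.17 and -0.21 ± 0.10 (SE), and that of Ndufv3 at 0.16 ± 0.14 (SE).

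The remaining membrane arm classes were small. Ndufc1 gave 3.19, 3.03 and 3.08 on the siGFP arrays and 3.32, 3.20 and 3.17 on the circHIPK3 siRNA arrays, where the lowest circHIPK3 siRNA array lay within the siGFP range, and the change was 0.13 ± 0.10 (SE). Ndufc2, its partner in the proximal membrane arm, gave 3.94, 3.73 and 3.83 against 3.86, 3.73 and 3.74, with a change of -0.06 ± 0.10 (SE) that became 0.03 with slide as a block. Ndufab1, the mitochondrial acyl carrier protein that also serves lipoate and iron-sulfur cluster synthesis, gave -0.72, -0.91 and -0.76 against -0.87, -0.90 and -0.65. Its groups overlapped, and the change was -0.01 ± 0.11 (SE). Its sign turned on leaving out siGFP replicate 1 or 3, or circHIPK3 siRNA replicate 1 or 2.

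The 8 Ndufaf assembly factor genes lay on both sides of 0, with 4 below and 4 above and none past the threshold. Ndufaf1, which helps join membrane arm intermediates, gave 0.52, 0.52 and 0.56 on the siGFP arrays and 0.67, 0.78 and 0.66 on the circHIPK3 siRNA arrays. Ndufaf4, which acts with Ndufaf3 on the early Q module, gave 0.41, 0.40 and 0.24 against 0.65, 0.43 and 0.51. For both genes all 3 circHIPK3 siRNA arrays were higher, with changes of 0.17 ± 0.09 and 0.18 ± 0.11 (SE), while the second Ndufaf4 probe was at -0.06 ± 0.11 (SE). Ndufaf2, a paralog of Ndufa12 that acts late in assembly, gave 1.33, 1.66 and 1.45 against 1.60, 1.80 and 1.57 and overlapped.

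Lower values were found for Ndufaf3 and Ndufaf8, the latter a partner of the hydroxylase Ndufaf5. Ndufaf3 gave -0.26, -0.25 and -0.15 against -0.23, -0.52 and -0.48, a change of -0.19 ± 0.11 (SE) in which replicate 1 lay within the controls, at -0.01 relative to their mean. Ndufaf8 gave 0.38, 0.20 and 0.33 against 0.13, 0.32 and 0.04, with overlapping groups and a change of -0.14 ± 0.11 (SE). Ndufaf5, Ndufaf6 and the arginine methyltransferase Ndufaf7 were at -0.03 ± 0.13, -0.05 ± 0.09 and 0.04 ± 0.09 (SE).

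**Figure D3:**
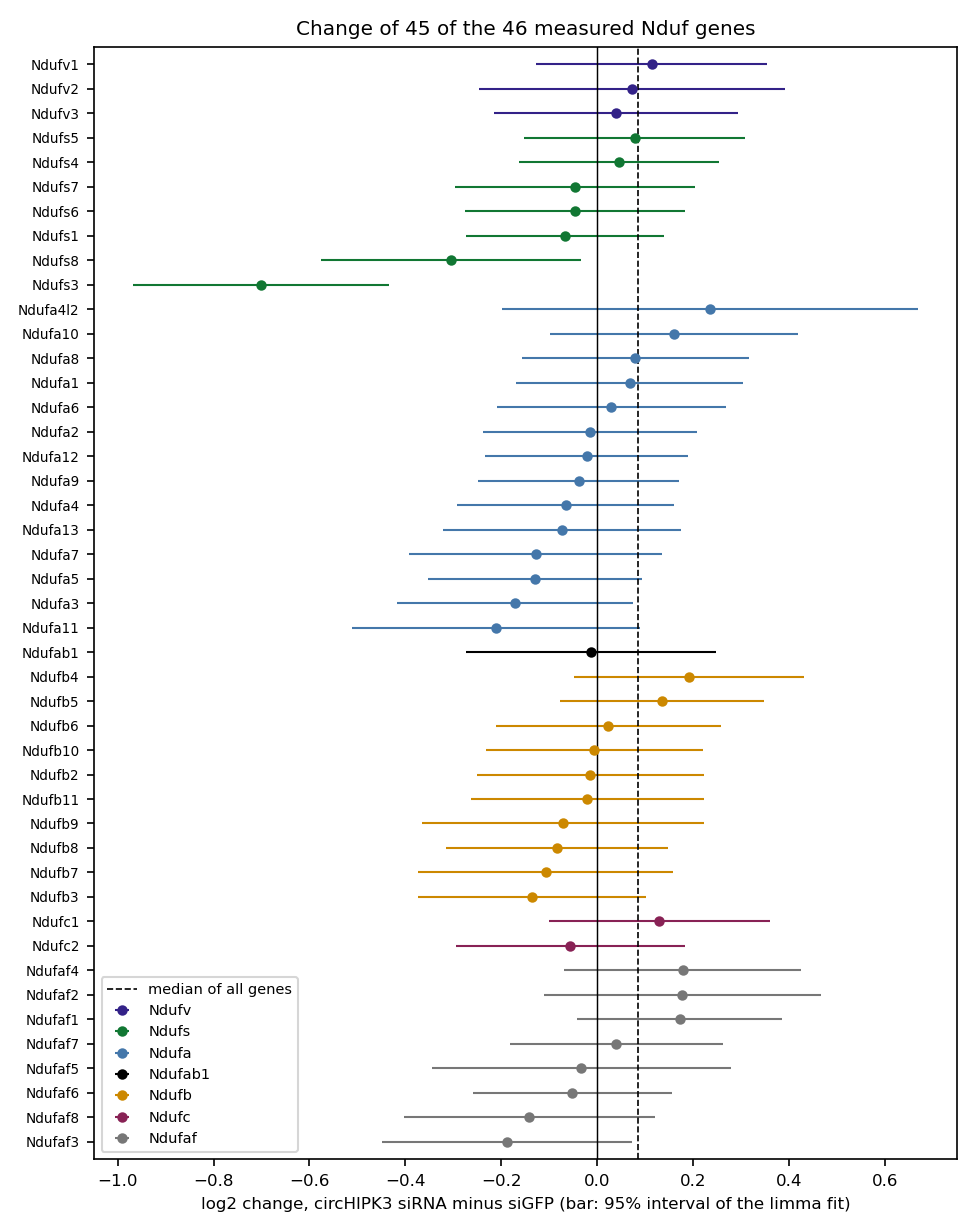
Log2 change (x axis, circHIPK3 siRNA minus siGFP) of 45 of the 46 measured Nduf genes (y axis), coloured by symbol class. Points are limma estimates and bars 95% intervals, with 3 arrays a group, and the dashed line is the median of all genes at 0.08. Ndufs3 at -0.70 is the lowest estimate, with an interval that overlaps that of Ndufs8, and Ndufs8 at -0.30 is the other gene whose interval leaves out 0.

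Compared as classes under the 75th percentile scaling, the median changes were -0.05 for Ndufs, -0.03 for Ndufa, -0.02 for Ndufb, 0.0035 for Ndufaf, 0.04 for Ndufc and 0.07 for Ndufv. Differences between the class medians were not tested. On the arrays the Ndufs medians were 2.87, 2.87 and 2.94 for siGFP and 2.93, 2.94 and 2.80 for circHIPK3 siRNA, and the Ndufv medians were 3.84, 3.66 and 3.87 against 3.92, 3.85 and 3.94. In both classes the groups overlapped. By role, the 7 core subunits had a median of -0.05 (-0.04 without Ndufs3) and the 29 supernumerary subunits -0.01. By module, the N module had 0.0077, the proximal membrane arm 0.07 and the distal membrane arm -0.01. The relative position of the small classes moved with the processing: relative to all genes the Ndufv median was -0.01 here, 0.07 under quantile normalization and 0.08 with slide as a block.

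All 46 genes together had a median change of -0.02, with 28 below 0. Of all genes tested 35.9% were below 0, and of the brightest signal group 52.7%. The count below 0 followed the processing, from 17 with slide as a block through 23 under quantile normalization to 37 under median scaling, which moves the median of all genes from 0.08 to -0.02. Relative to the median of all genes the Nduf median was -0.11, and 37 of 46 lay below it. Of the 46 Nduf genes, 34 belonged to the brightest of the 4 signal groups. In that group 74.95% of genes lay below the median of all genes. Whether the distance of -0.11 goes with signal was not tested. Set against the median of their own signal group, 27 of the 46 were below. Under quantile normalization the Nduf median relative to all genes was -0.03, with 28 of 46 below, and with slide as a block it was -0.0038, with 24 of 46 below. The array medians of the 46 genes were 2.98, 2.89 and 3.03 for siGFP and 2.95, 2.97 and 2.86 for circHIPK3 siRNA, which overlap. The groups did not overlap for 7 members, 4 lower and 3 higher, where 25.9% of all genes tested had groups that did not overlap, 9.38% lower and 16.6% higher. The 4 were Ndufs3, Ndufs8, Ndufa5 and Ndufs1, and the 3 were Ndufb5, Ndufaf1 and Ndufaf4.

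**Figure D4:**
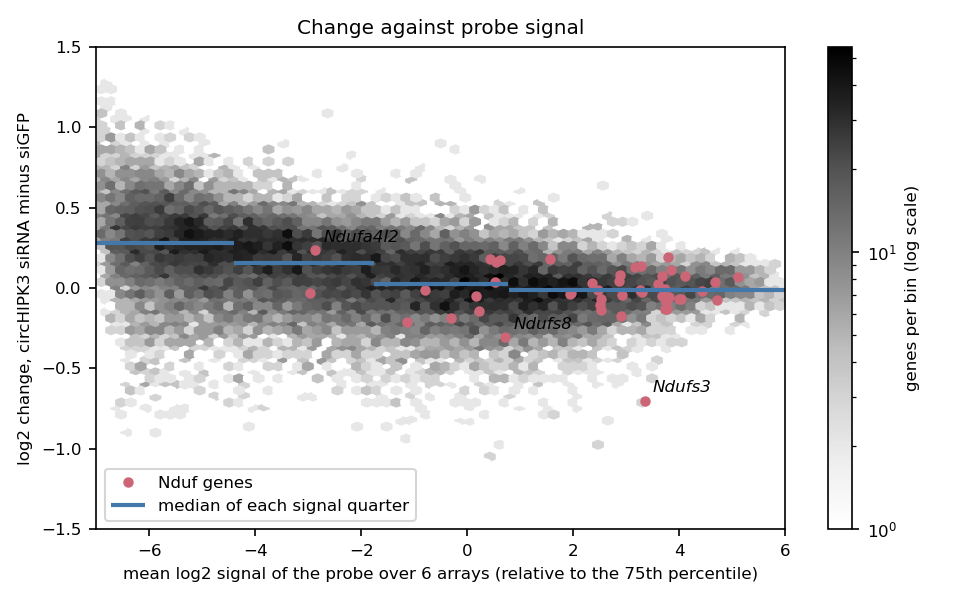
Log2 change (y axis, circHIPK3 siRNA minus siGFP) against mean log2 signal over 6 arrays (x axis, relative to the 75th percentile) for all genes tested, shaded by number per bin on a log scale, with 184 genes outside the drawn range. Red points are the Nduf genes and blue lines the median change of each of the 4 signal groups, 0.28, 0.15, 0.02 and -0.0097 from dim to bright. Most Nduf genes lie along the line of the brightest group, and Ndufs3 lies well below it.

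Complex I also depends on assembly factors without an Nduf symbol, of which 14 of 15 listed were measured. None passed the threshold, while at an unadjusted limma p under 0.05, 2 were lower and 1 was higher, a share near the 21.1% of all genes tested. These 3 are given as the smallest p-values of the list. Ecsit, which works with Ndufaf1 on membrane arm intermediates and also acts in innate immune signalling, gave 1.04, 1.098 and 1.13 on the siGFP arrays and 0.60, 0.73 and 0.65 on the circHIPK3 siRNA arrays. Foxred1, an oxidoreductase needed for assembly, gave 0.88, 0.60 and 0.69 against 0.33, 0.0032 and 0.28. All 3 circHIPK3 siRNA arrays were lower for both, including replicate 1 on the slide of the controls, which differed from the siGFP mean by -0.49 for Ecsit and -0.39 for Foxred1. The changes were -0.43 ± 0.09 (SE, limma adjusted p = 0.0714) and -0.52 ± 0.13 (SE, adjusted p = 0.0983). Both passed with a trended, robust variance (limma adjusted p = 0.0324 for Ecsit and 0.0484 for Foxred1) and with array weights (0.0458 and 0.0429). Foxred1 also passed under median scaling (0.0424). Those settings called 623, 1079 and 609 genes in all, against 305 in the main processing. Each gene missed the threshold in every other alternative. Examples are the replicate block (limma adjusted p = 0.127 and 0.107) and the fit without siGFP replicate 3 (0.256 and 0.265). Nubpl, which delivers iron-sulfur clusters to complex I, gave -0.9995, -0.73 and -0.82 against -0.31, -0.44 and -0.61, a change of 0.40 ± 0.12 (SE, limma adjusted p = 0.143). The median of the 14 genes was 0.01, against 0.08 for all genes.

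Of 10 regulators of respiratory chain genes, none passed, and 2 were higher at an unadjusted limma p under 0.05, a limit at which 14.6% of all genes tested were higher. Those were Tfb1m, which methylates mitochondrial ribosomal RNA, at 0.30 ± 0.10 (SE, limma adjusted p = 0.149), and the coactivator gene Ppargc1b at 0.36 ± 0.14 (SE, adjusted p = 0.213). Nrf1, Gabpa and Yy1 were at 0.13 ± 0.10, -0.05 ± 0.13 and -0.10 ± 0.12 (SE). No probe was matched to the complex I subunit genes of mitochondrial DNA, which are not analysed here.

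Ndufs3 starts head to head with Kbtbd4, a gene for a BTB-Kelch protein, with 19 bases between the start sites in the RefSeq table. Kbtbd4 gave 0.89, 0.84 and 1.00 on the siGFP arrays and 0.61, 0.73 and 0.41 on the circHIPK3 siRNA arrays. All 3 circHIPK3 siRNA arrays were lower, as they were for 9.38% of all genes tested. Its change was -0.33 ± 0.12 (SE, limma adjusted p = 0.18), which did not pass the threshold. The gene was looked at after the Ndufs3 value was known, and whether the pair changes together was not tested. Other head-to-head partners, given below, moved with or against their Nduf gene.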

How the data were processed

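The deposited scanner files of 6 arrays hold each spot's background-subtracted intensity, not log transformed. Per the file headers, the authors extracted them with Agilent Feature Extraction 11.0.1.1. A deposited table gives log2 values of the same arrays, with column medians near 9.80 and correlations of 0.9999 or above with the scanner values. Its normalization is not given in the sources used here, and it served as an alternative.

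Non-uniform and outlier spots were left out, log2 intensities were scaled to each array's 75th percentile, and 31392 of 39429 probes, well above background on all 3 arrays of a group, were kept. Symbols came from matching the files' accessions to RefSeq (GRCm38.p6), which named 27234 probes. The RefSeq table held 54 Nduf symbols, of which 46 had a probe. Ndufb1 had none. The array design names another build, so coordinates are given for promoters only. Groups were compared by lmFit and eBayes of limma 3.58.1 (R 4.3.3), with no term but group. The procedure was tested on simulated data. Figures were drawn with matplotlib 3.10.9.

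The members, gene lists and module assignments were chosen with earlier results of these data known, and sources differ on a few subunits at module borders. Values of every array were given for called members, the 6 lowest and 6 highest changes, and each class's brightest and most changed member. Outside that rule they were given for the Q module genes Ndufs7, Ndufa5 and Ndufa9, and for Ndufs1 and Ndufb5. Individual values of 1 member and of some markers are not reported here. Other complex I genes were named if among the 2 smallest p-values of their list, and Nubpl, Nrf1, Gabpa, Yy1 and Kbtbd4 outside that rule. Alternatives changed scaling, background correction, probe filter, probe choice, variance model, blocks and the arrays used. With the shared replicate numbers, deviations of same-numbered arrays correlated at -0.02, 0.27 and -0.13, so the numbers were not treated as pairs.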

Additional observations from a re-analysis of the deposited data

How the results depend on the processing

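The change of Ndufs3 ranged from -0.80 to -0.63 over the 21 alternatives. That its direction held is no support. The direction was fixed where an array was left out, since the groups did not overlap, and the other alternatives reused the same arrays. With 1 probe, the probe filter and probe choice cannot move its estimate, nor can the trended variance or the replicate block. Ndufs8 missed the limma threshold in all 21. The Ndufs3 call, and with it the count of Nduf genes called, was lost (0 called, Ndufs3 at -0.70) with no filter on dim probes, with the replicate block, with slide as a fixed or a random block, and on the first slide alone. Those fits called 0, 0, 0, 124 and 0 of all genes by limma, against 305, with 5632, 5137, 2681, 4662 and 2876 genes at an unadjusted p under 0.05. The cause of each loss was not tested. Leaving out 1 array gave 0 to 1740 genes called (1740 without circHIPK3 siRNA replicate 1, 1 without replicate 2 and 0 without any other array, where 3352 to 5076 passed unadjusted), 0 to 1 Nduf genes called and an Ndufs3 change of -0.77 to -0.63. The count of all genes was 609 with median scaling, 185 with the value table, 177 with probes well above background on all 6 arrays, 623 with trend and robust variance and 1079 with array weights. It was 434 under cyclic loess, of which 330 were lower, and 358 with normexp, of which 302 were lower.

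Class medians relative to all genes moved by more than the spread between arrays in these cases. For Ndufa the median was -0.030 under quantile normalization, -0.029 under cyclic loess and -0.028 in the value table, against -0.11 in the main processing. For Ndufaf it was -0.020 under cyclic loess, -0.0035 with normexp and -0.019 in the value table, against -0.08. For Ndufv it was 0.075, 0.078 and 0.096 under quantile normalization, cyclic loess and normexp. On leaving out 1 array it was -0.067 to 0.076, beyond that spread only without siGFP replicate 3 (0.076). For Ndufs it was -0.024 with normexp, against -0.13. With slide as a fixed block, and on the first slide alone, the medians were -0.0038 for all Nduf genes, -0.0086 for Ndufa, 0.010 for Ndufaf, 0.017 for Ndufb, 0.080 for Ndufc and 0.083 for Ndufv. The replicate block changed no class median, which was fixed in advance, since both groups hold the same replicate numbers. Same-numbered arrays did not all correlate best with each other.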

Other observations

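Besides Ndufs3, another 13 of the 40 Nduf genes with a promoter in the table start within 1000 bases of a gene on the opposite strand. None of the 13 measured partners, Kbtbd4 included, passed the limma threshold, which 1.18% of all genes tested passed. Mrpl47, a mitochondrial ribosomal protein gene that starts 308 bases from Ndufb5, was at -0.38 ± 0.09 (SE, limma adjusted p = 0.0951) with all 3 circHIPK3 siRNA arrays lower, while the brighter Ndufb5 probe was at 0.14. Vmac, 63 bases from Ndufa11, was at -0.34 ± 0.13 (SE), beside -0.21 for Ndufa11. Rps28, a ribosomal protein gene 10 bases from Ndufa7, was at 0.04 ± 0.10 (SE), beside -0.13 for Ndufa7. Fam126b, 64 bases from Ndufb3, was at 0.29 ± 0.11 (SE), beside -0.14 for Ndufb3. Groups did not overlap for Mrpl47, Vmac, Ercc8 and Kbtbd4, all lower, and for Rnf113a1 and Fam126b, both higher. They overlapped for the other measured partners. Of all genes tested, 25.9% had groups that did not overlap, 9.38% lower and 16.6% higher. The partners were looked at after the values of the Nduf genes were known.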
